A study of Mus musculus with 2 samples.

Results

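The ribosomal protein genes of the mouse were examined as sites of open chromatin in the embryonic hindbrain. They were taken by symbol from the protein-coding genes of the GENCODE M21 basic set: Rpl or Rps followed by a digit, Rplp0 to Rplp2 and Rpsa for the cytoplasmic ribosome, and Mrpl or Mrps followed by a digit for the mitochondrial ribosome. Symbols with "ps" after the number and the ribosomal protein S6 kinases were left out. The rule gave 164 of the 21938 protein-coding genes on the assembled chromosomes. Of these, 86 were cytoplasmic (52 of the large and 34 of the small subunit) and 78 mitochondrial (49 large, 29 small). The 86 include 9 paralogues and other names caught by the letters of the rule: Rpl3l, Rpl7l1, Rpl10l, Rpl22l1, Rpl36al, Rpl39l, Rps27l, Rps27rt and Rps19bp1, of which the last is a binding partner and not a ribosomal protein.

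The study is a DNase-seq experiment, in which the enzyme DNase I cuts accessible DNA and the cuts are sequenced. It has 1 group of 2 biological replicates, each hindbrain tissue of healthy B6NCrl mouse embryos at 14.5 days, pooled from males and females. There is no second tissue, age or treatment, so no test between samples was possible and genes are not replicates. Values are therefore given for each library, beside the same value over all protein-coding genes and over those with a CpG-rich promoter (300 bases with GC content of at least 50% and a CpG observed/expected ratio of at least 0.6).

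Cytoplasmic ribosomes translate nuclear messages, and their proteins are made in matched amounts in growing cells. Their messages are known for a cytosine at the start followed by a run of pyrimidines, the terminal oligopyrimidine tract, through which translation follows growth signals. Mitochondrial ribosomes translate the few proteins encoded in the mitochondrial genome, yet all their own proteins come from nuclear genes. Binding sites for ETS factors, NRF1 and YY1 are known from promoters of nuclear genes for mitochondrial proteins.

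A run of 8 or more pyrimidines touched the main GENCODE start at 21 of the 86 cytoplasmic members. The 6 long runs printed here stand at RefSeq starts (GRCm38.p6, 5′ to 3′), and none of these 6 genes is among the 21. At the main GENCODE start their runs were 3 (Rpl7a), 4 (Rpl27a), 6 (Rpl34), 2 (Rpl35), 1 (Rpl15) and 2 (Rpl14). The printed runs were picked for length at 1 RefSeq start per gene. They are thus not typical of the set, whose median run is 4 at GENCODE starts. Rps24, with a run of 19 at its main GENCODE start, is not among the 6. Capitals mark the run of C and T that touches the 11 bases around the RefSeq start.
Rpl7a (chr2:26910789-26910818, plus strand, start at 26910807): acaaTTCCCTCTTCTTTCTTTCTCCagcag
Rpl27a (chr7:109519187-109519216, plus strand, start at 109519195): tgagCTCCTCCCTTTTCCCTTTCTgccacc
Rpl34 (chr3:130730329-130730358, minus strand, start at 130730337): cccgCCCCTTCCTTTTCCTCTTCCggggac
Rpl35 (chr2:39005113-39005142, minus strand, start at 39005131): cccgCCCTTTCCTCTTTCTCTCgaaccagg
Rpl15 (chr14:18270965-18270994, minus strand, start at 18270986): aaagCCTTCTTCCTTTCCTCTggcggcagc
Rpl14 (chr9:120571505-120571534, plus strand, start at 120571517): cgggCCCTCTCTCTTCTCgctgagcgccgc

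In the mitochondrial set, 5 promoters of 300 bases held both the ETS letters CCGGAAG and the NRF1 letters GCGCANGCG: Mrpl17, Mrpl22, Mrpl57, Mrps21 and Mrps26. In the cytoplasmic set Rplp1 and Rpsa held both as well. How often both occur over all promoters was not counted, so the pairing is not shown to be particular to either set. The 3 mitochondrial promoters shown have both between 85 bases before and 15 after a RefSeq start. Capitals mark these and other letters searched: GGGCGG (SP/KLF), CCAAT (NFY) and CTCGCGAG, all on both strands, so that a motif can stand as its reverse complement.
Mrpl22 (chr11:58171544-58171678, plus strand, start at 58171664): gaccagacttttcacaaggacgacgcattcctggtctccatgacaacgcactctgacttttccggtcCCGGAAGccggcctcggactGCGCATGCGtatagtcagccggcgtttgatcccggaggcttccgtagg
Mrpl57 (chr14:57826154-57826253, plus strand, start at 57826239): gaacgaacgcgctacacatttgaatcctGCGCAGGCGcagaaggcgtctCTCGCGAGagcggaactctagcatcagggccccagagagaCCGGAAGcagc
Mrps26 (chr2:130563637-130563771, plus strand, start at 130563757): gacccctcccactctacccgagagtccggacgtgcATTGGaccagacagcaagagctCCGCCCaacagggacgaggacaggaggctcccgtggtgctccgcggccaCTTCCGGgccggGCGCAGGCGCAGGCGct

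The deposited lists differed in length before any member was looked up. Replicate 1 held 263679 peaks and 231347 hotspots on the assembled chromosomes, and replicate 2 held 148804 peaks and 133205 hotspots. A peak is a window of about 150 bp with a score (the authors' own value, at most 150 in replicate 1 and 145 in replicate 2), and a hotspot is the longer stretch of enriched cutting around it. The score's definition and the read depth were not given in the sources used here, so each score is also given as its percentile among all peaks of its own library, and no score is compared between libraries. Of the hindbrain markers fixed for the tissue check, such as Hoxa2, En2 and Gbx2, 10 of 10 had a promoter peak in both libraries, as did 4 of 4 neuron markers and 2 of 10 markers of other tissues (Emx2 and Myod1).

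A promoter peak, one whose midpoint lay within 1 kb of a transcription start, was found at 160 of the 164 members in both libraries. Over all protein-coding genes the share was 69.9% in replicate 1 and 65.7% in replicate 2, and over those with a CpG-rich promoter 98.3% and 96.8%, near the members' 97.6%. All 78 mitochondrial members were called in both libraries. So were 82 of 86 cytoplasmic members, and all 77 that are not paralogues or other names. In 81 cytoplasmic and 78 mitochondrial members a replicate 1 peak overlapped a replicate 2 peak, against 64.6% of all protein-coding genes and 96.4% of those with a CpG-rich promoter. The exception among called members was Rps19, whose strongest peaks lay side by side, with midpoints 180 bp apart. Its single peak of replicate 1 (chr7:24884216-24884365) lay between the 2 of replicate 2.

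The 4 members without a peak in either library were Rpl3l, Rpl10l, Rpl39l and Rps27rt, all paralogues. Rpl3l is the form of striated muscle, and Rpl10l and Rpl39l are known from the male germ line. Their partners were all called. Rpl3, which lines the catalytic centre of the large subunit, had scores of 146 and 125 (replicates 1 and 2). Rpl10, the X-linked partner of Rpl10l, had scores of 129 and 97, and Rpl39, the X-linked partner of Rpl39l, 128 and 83. Rps27 had scores of 140 and 108. The other 5 names of this kind were called in both libraries: Rpl22l1 with scores of 142 and 121, Rpl36al with 144 and 119, Rpl7l1 with 132 and 97, Rps27l with 129 and 99, and Rps19bp1 with 141 and 98.

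The cytoplasmic members ranked above the mitochondrial members. The median percentile of the strongest promoter peak was 98.8 in replicate 1 and 97.8 in replicate 2 for the 82 called cytoplasmic members. For the 78 mitochondrial members it was 97.7 and 96.7. The difference of the medians was 1.07 percentile points in replicate 1 and 1.16 in replicate 2, and 6 score units in each. Over all called protein-coding genes the median was 96.8 and 94.8, and over those with a CpG-rich promoter 97.9 and 96.5. The mitochondrial median thus lay just below the CpG-rich median in replicate 1 and just above it in replicate 2, while the cytoplasmic median lay above it in both.

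**Figure D1:**
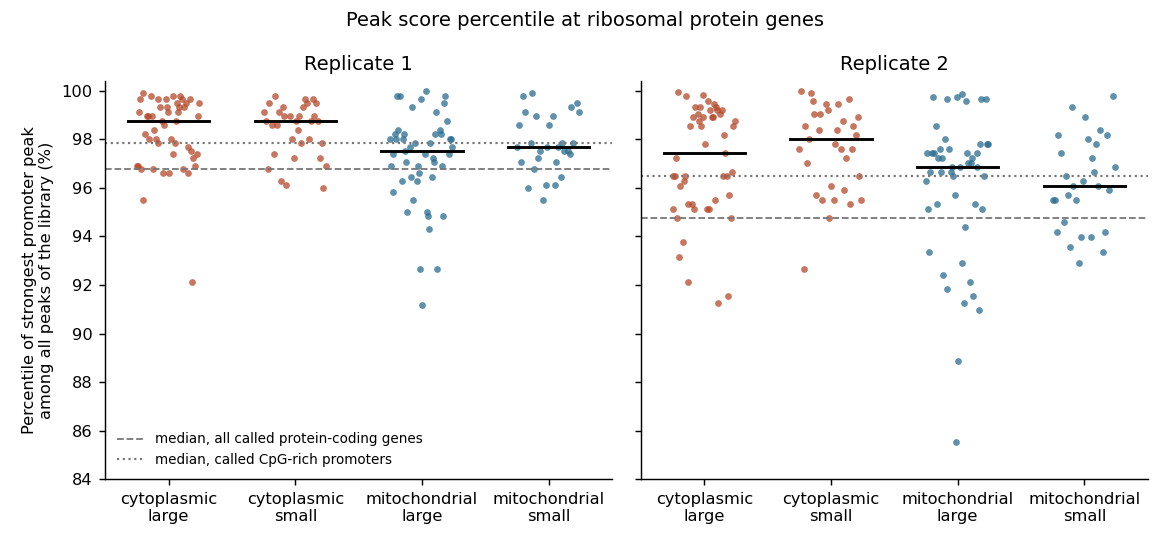
Percentile of the strongest promoter peak among all peaks of its library, for each called member (points) by ribosome and subunit, in replicate 1 (left) and replicate 2 (right). Black bars are group medians, and broken lines are the medians of all called protein-coding genes and of those with a CpG-rich promoter. The cytoplasmic points reach down to 92.1 and 91.3, and the mitochondrial points to 91.2 and 85.5.

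The strongest peak was among the top 5% of its library in both libraries at 73 cytoplasmic members (84.9%) and 59 mitochondrial members (75.6%). This held for 31.7% of all protein-coding genes and 60.6% of those with a CpG-rich promoter. In the top 1% lay 35.4% of called cytoplasmic members in replicate 1 and 26.8% in replicate 2, against 17.9% and 11.5% of mitochondrial members. Over all called genes these shares were 17.6% and 11.5%. The mitochondrial members thus filled the top 1% about as often as called genes at large, and the cytoplasmic members more often. The share of CpG-rich genes in the top 1% was not counted. The upper quartile of their percentiles was 98.95 and 98.37, beside 99.32 and 99.06 for cytoplasmic and 98.4 and 97.77 for mitochondrial members. No test was made of these shares, since genes share promoters and neighbourhoods.

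The subunits differed less steadily than the ribosomes. In the cytoplasmic set the large subunit had a median percentile of 98.8 and 97.4 and the small subunit 98.8 and 98.0. In the mitochondrial set the large subunit had 97.5 and 96.9 and the small subunit 97.7 and 96.1. The sign of the subunit difference in the mitochondrial set changed between the libraries. In the top 5% of both libraries lay 80.8% of the large and 91.2% of the small cytoplasmic subunit, and 77.6% and 72.4% in the mitochondrial set.

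At the top of the cytoplasmic set stood Rpl13a, a large-subunit protein also known for its part in silencing messages after inflammation. Its peak had a score of 147 in replicate 1 and 129 in replicate 2, at the same position in both. Rps19, the small-subunit protein most often mutated in Diamond-Blackfan anaemia, had 146 and 128. Rpl3 had 146 and 125, and Rpl18 had 146 and 122. Rpsa, a small-subunit protein first described as a laminin receptor, had 145 and 123. The strongest peak of each of these 5 genes lay at or above the 99th percentile in each library. For Rpl18 and Rps19 these were different peaks in the 2 libraries, and no single peak of either gene reached it in both.

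Sequence is shown around the RefSeq start nearest to the replicate 1 peak where there is an entry, cut where annotated untranslated sequence passes 30 bases. The capitals are motif letters as above, and in Rps19 they are CTCGCGAG, which spans the start. The pieces need not lie in the strongest peaks. From the Rps19 start shown these peaks were at -301.5 and -481.5 bp, so CTCGCGAG lay outside both, within a weaker peak of replicate 2 (score 117). From the Rpl18 start shown they were at -2740.5 bp in replicate 1 and -40.5 bp in replicate 2.
Rpl13a (chr7:45128736-45128865, minus strand, start at 45128745): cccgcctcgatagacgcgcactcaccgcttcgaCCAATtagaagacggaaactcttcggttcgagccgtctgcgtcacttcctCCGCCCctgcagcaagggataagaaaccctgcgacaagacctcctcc
Rps19 (chr7:24884572-24884601, plus strand, start at 24884592): agcactccgaaatCTCGCGAGactcgacgc
Rpl18 (chr7:45718051-45718080, plus strand, start at 45718071): acgagtgcgtctcgcaggccgctctttccc
Rpsa (chr9:120127746-120127775, plus strand, start at 120127766): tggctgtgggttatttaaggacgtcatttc

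The lowest called cytoplasmic members still lay in the top 10% of their libraries. Rpl4, a large-subunit protein with a loop in the peptide exit tunnel, had scores of 104 and 81 (92.1 and 91.6 as percentiles). Rpl6 had 128 and 80. Rpl5, which binds 5S RNA together with Rpl11, had 120 and 87, while Rpl11 itself had 141 and 98. Rpl39, a small protein of the exit tunnel, had 128 and 83, and Rps4x 128 and 85. Rpl39 and Rps4x are X-linked.

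All 4 X-linked members, Rpl10, Rpl36a, Rpl39 and Rps4x, lay below the autosomal median of the set in replicate 2, and 3 of the 4 in replicate 1. Their percentiles were 96.9, 98.95, 96.8 and 96.8 in replicate 1 and 95.1, 93.8, 92.1 and 92.7 in replicate 2. The medians of the 4 were 96.8 and 93.2, against 98.8 and 98.1 over the 78 called autosomal cytoplasmic members. The chromosome as a whole stood lower too: over CpG-rich promoters the median was 96.5 and 91.3 on the X and 97.9 and 96.5 on the autosomes. The X-linked members were singled out after their values were seen, and the mitochondrial set has none.

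In the mitochondrial set Mrpl18 stood highest, with a score of 150 in replicate 1, the highest that library holds, and 127 in replicate 2. Mrpl18 is a large-subunit protein linked to the import of 5S RNA. Mrpl49 had 146 and 124, Mrpl47 had 146 and 123, Mrpl48 had 145 and 124 and Mrps18b had 144 and 125. The first 4 of these are large-subunit proteins, and Mrps18b is one of the S18 forms of the small subunit. All 5 lay at or above the 99th percentile in both libraries.

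The pieces shown here hold none of the letters searched, but they are short. The strongest peaks had their midpoints at -199.5 and -219.5 bp from the Mrpl18 start shown. From the Mrpl47 start they were at -155.5 and -175.5 bp. Over the 300 bases at the main GENCODE start, Mrpl18 and Mrpl48 held the ETS letters, and Mrpl18 and Mrpl49 held GGGCGG. For Mrpl48 that start (chr7:100583102) belongs to another start region than the one shown. Its strongest peaks did not lie there but at chr7:100607416-100607565 (replicate 1) and chr7:100607576-100607725 (replicate 2).
Mrpl18 (chr17:12916082-12916111, minus strand, start at 12916091): cggcccttgtagctttacccacagttaaca
Mrpl49 (chr19:6057756-6057840, minus strand, start at 6057755): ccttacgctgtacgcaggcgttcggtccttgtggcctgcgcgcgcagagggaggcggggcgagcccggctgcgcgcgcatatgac
Mrpl47 (chr3:32736746-32736775, minus strand, start at 32736755): tcgtggacaccgacactgtgggtctccatt
Mrpl48 (chr7:100607613-100607642, minus strand, start at 100607622): gctcctcccgtgcggtggagaaaggggccg

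The lowest mitochondrial members were large-subunit genes. Mrpl13 had scores of 106 and 65, the lowest percentile of any called member in replicate 2 (85.5). Mrpl27 had 101 and 73, the lowest in replicate 1 (91.2). Mrpl3 had 106 and 81, Mrpl35 had 116 and 79 and Mrpl33 had 116 and 80. Mrpl12, known to bind the mitochondrial RNA polymerase, stood higher with 144 and 111. Mrpl58, a peptidyl-tRNA hydrolase built into the large subunit, had 122 and 88.

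Members kept much of their order between the libraries. Spearman's rank correlation of the percentile was 0.62 over the 82 called cytoplasmic members and 0.69 over the 78 mitochondrial ones, against 0.91 over the 14263 genes called in both libraries, a set with a far wider range. These are descriptions across genes. Both libraries come from the same tissue and promoters can be shared, so no p-value is given. The midpoints of the strongest peaks lay within 20 bp of each other, 1 step of the grid on which the peaks were placed, at 132 of 160 members. This held for 10706 of the 14263 genes called in both libraries.

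**Figure D2:**
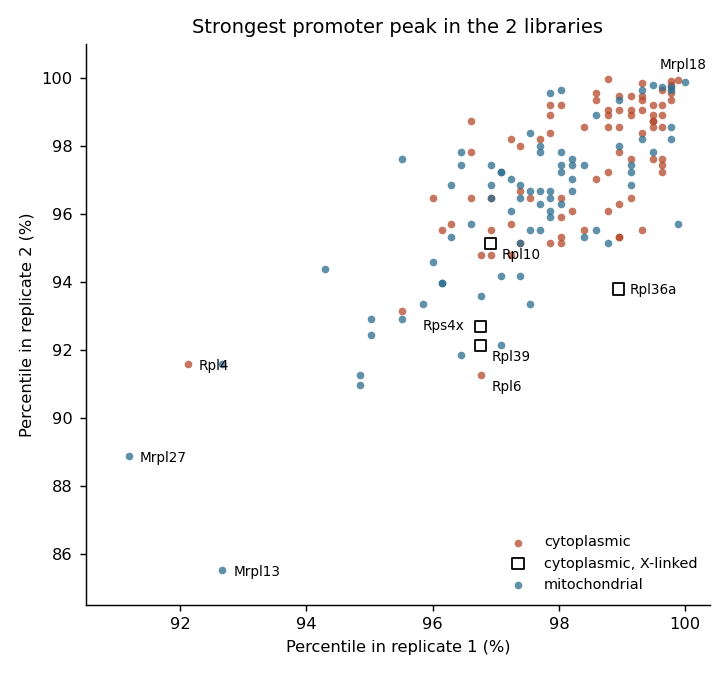
Percentile of the strongest promoter peak in replicate 1 (horizontal) and replicate 2 (vertical), 1 point for each called member. Open squares are the 4 X-linked cytoplasmic members, of which Rpl36a lies at 98.95 and 93.8, and Mrpl13 is the lowest point in replicate 2 at 85.5.

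At 8 of 160 members the strongest peaks of the libraries lay 100 bp or more apart, beside 1445 of the 14263 genes called in both. Rpl18 was the extreme case, since its peak stood at chr7:45715256-45715405 in replicate 1 and at chr7:45717956-45718105 in replicate 2, 2700 bp downstream. Both libraries had a peak at both places, with scores of 146 and 138 in replicate 1 and 115 and 122 in replicate 2, and only their order changed. These are 2 annotated start regions of the gene, the first of which is shared with Sphk2, whose start lies 69 bp away on the other strand. Rpl7 (560 bp), Rpl4 (380 bp), Mrps12 (360 bp), Mrpl23 (300 bp), Rps27a (280 bp), Rps19 (180 bp) and Mrpl48 (160 bp) were the others.

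The strongest peak lay just upstream of the start in both sets. Its midpoint was within 100 bp of a start at 84.1% of called cytoplasmic members in replicate 1 and 89% in replicate 2, and at 82.1% and 80.8% of mitochondrial members. Over all called genes the shares were 63.4% and 64.8%, and over those with a CpG-rich promoter 69.3% and 70.4%. The peak contained the start at 60 and 62 of the 82 cytoplasmic members (73.2% and 75.6%) and at 60 and 59 of the 78 mitochondrial ones (76.9% and 75.6%). Over all called genes it did so at 54% and 55.9%, and over those with a CpG-rich promoter at 58.7% and 60.4%. Offsets are counted in the direction of transcription from the nearest GENCODE start, negative upstream.

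Cytoplasmic peaks were centred somewhat farther upstream when the strongest peak was used. The median offset was -35 bp in replicate 1 and -34 bp in replicate 2 for cytoplasmic members, and -15.5 and -21.5 bp for mitochondrial members. The difference was -19.5 and -12.5 bp, which is smaller than 1 step of the 20 bp grid in each library. With the peak nearest to the start instead, it was -12 and 3.5 bp, so its sign turned in replicate 2. All called genes had -35.5 bp in both. Between the quartiles the cytoplasmic offsets ran from -71.2 to -5.5 bp in replicate 1, and the mitochondrial ones from -50.2 to 23.2 bp, so most of both sets overlapped.

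**Figure D3:**
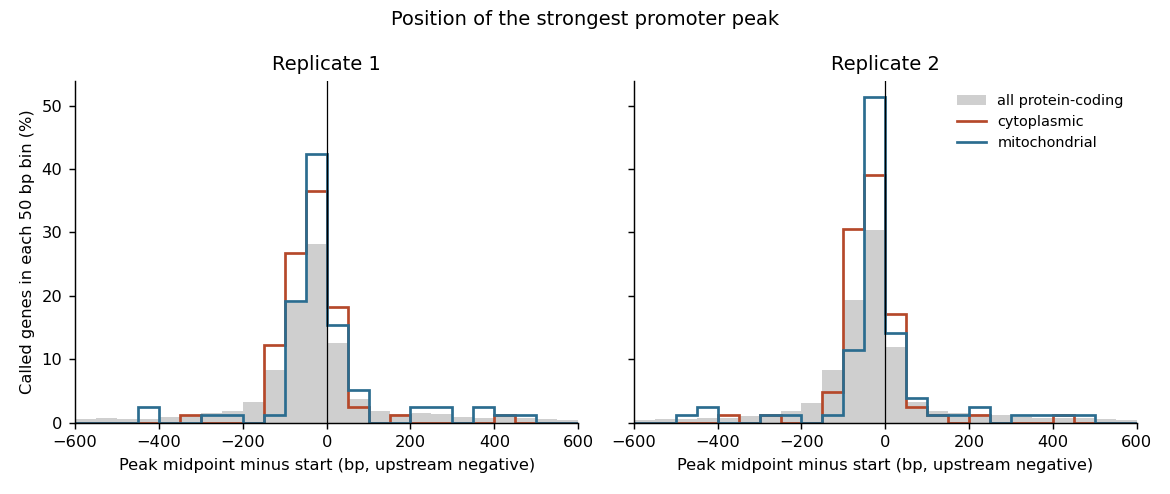
Share of called genes (vertical, percent) whose strongest promoter peak has its midpoint in each 50 bp bin of distance from the nearest start (horizontal, upstream negative), for cytoplasmic and mitochondrial members and all protein-coding genes (filled). In both libraries the fullest bin of every set is the one just upstream of the start, with 36.6% and 39% of cytoplasmic, 42.3% and 51.3% of mitochondrial and 28.2% and 30.4% of all called genes; Mrpl48 lies outside the range drawn.

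Members with the farthest peaks showed how far the offset rests on the annotation. The peak of Mrpl48 lay 810.5 bp (replicate 1) and 650.5 bp (replicate 2) downstream of the GENCODE start, but 131.5 and -28.5 bp from the nearest RefSeq start. Rpl35, with a long pyrimidine run at its RefSeq start, had GENCODE offsets of 413.5 and 433.5 bp and RefSeq offsets of -79.5 and -59.5 bp. Mrpl39 had 391.5 and 411.5 bp against -106.5 and -86.5 bp, and Mrpl47 had 236.5 and 216.5 bp against -155.5 and -175.5 bp. In the other direction, Mrpl20 moved from 29.5 and 49.5 bp to 672.5 and 692.5 bp. Over members with a RefSeq entry the median RefSeq offset was -54 and -60 bp for 62 called cytoplasmic members and -46.5 and -37.5 bp for 69 mitochondrial ones. Peaks upstream of the RefSeq start were 87.1% of the cytoplasmic ones in each library, and 82.6% and 87% of the mitochondrial ones. Over all called protein-coding genes with a RefSeq entry 72.4% and 74.2% lay upstream, and the median was -42.5 bp in both libraries. These entries cover 66 of 86 cytoplasmic members, so the 2 annotations are compared over part of that set.

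The other far peaks were Mrps36 (466.5 and 486.5 bp), whose product is also known as a part of the oxoglutarate dehydrogenase complex, and Mrps18b (-441.5 and -481.5 bp). In the cytoplasmic set they were Rpl4 (15.5 and -364.5 bp) and Rpl7 (-328.5 and 231.5 bp). Rpl4 had 2 promoter peaks in both libraries. The one near the start scored 104 in replicate 1 and 78 in replicate 2, and the upstream one 102 and 81, so the order turned on a few score units.

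Rpl7 had 4 promoter peaks in each library. Its strongest was the outer upstream one in replicate 1 (score 135) and the downstream one in replicate 2 (score 97, with 94 at the upstream position).

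The hotspot around the strongest peak had about the same median length in both sets. The median hotspot length was 1048 bp in replicate 1 and 852.5 bp in replicate 2 for cytoplasmic members, and 1049.5 and 862 bp for mitochondrial members. The difference was -1.5 and -9.5 bp, far below the change between libraries. All hotspot bases within 1 kb of the start, which also count neighbouring hotspots, came to 1227 and 1009 bp at cytoplasmic members and 1068.5 and 922 bp at mitochondrial ones, so by that measure the cytoplasmic set was longer in both libraries. The median over all called genes was 1169 and 840 bp, and over CpG-rich promoters 1324 and 947.5 bp. At 134 of the 160 members the hotspot was shorter in replicate 2, the library with fewer hotspots. This was much as over all genes called in both libraries (12276 of 14263). Every called member's hotspot carried the highest −log10 q the files hold, 100, which was true of 90.8% and 84.2% of called genes.

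How the hotspot lay around the start differed more than its length. It reached a median of 508 bp upstream and 455.5 bp downstream of the start at cytoplasmic members in replicate 1, and 456 and 550.5 bp at mitochondrial members. In replicate 2 the cytoplasmic values were 432.5 and 330 bp and the mitochondrial ones 426 and 401 bp. The downstream reach was thus 95 and 71 bp shorter at cytoplasmic members, beside 652.5 and 390 bp over all called genes. The upstream reach was longer at 50 and 56 of 82 cytoplasmic members, and at 24 and 36 of 78 mitochondrial members, beside 5966 of 15334 and 7705 of 14405 called genes.

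**Figure D4:**
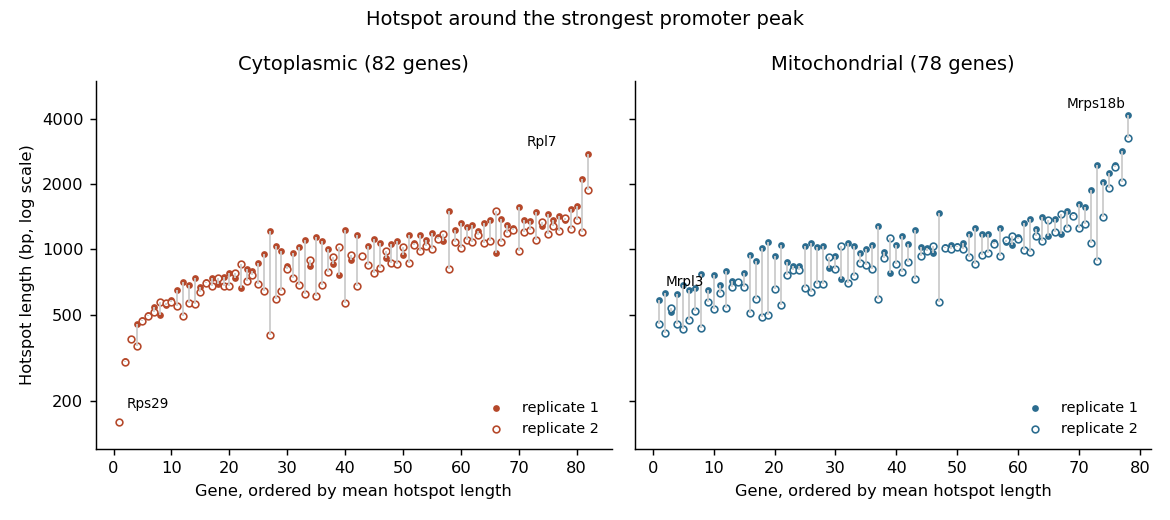
Length of the hotspot around the strongest promoter peak (vertical, bp, log scale) for each called member, ordered by its mean over both libraries. Filled points are replicate 1, open points replicate 2, and grey lines join the 2 values of a gene. Rps29 lies at 159 bp in both libraries and Mrps18b at 4182 and 3287 bp.

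Single members spread widely around these medians. The shortest cytoplasmic hotspot was that of Rps29, a zinc-binding protein of the small subunit. It was 159 bp long in both libraries, although its peak scored 139 and 122. Rps29 lies 109 bp from the start of Rn7s1, a gene for the RNA of the signal recognition particle, on the other strand. Rpl5 (305 and 301 bp) and Rpl24 (386 and 386 bp) followed. The longest were those of Rpl7 (2773 and 1874 bp), Rpl10 (2106 and 1201 bp) and Rps19 (1584 and 1361 bp).

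In the mitochondrial set Mrps18b had the longest hotspot, 4182 bp in replicate 1 and 3287 bp in replicate 2. Its start lies 177 bp from that of Ppp1r10 on the other strand. Mrpl34 (2850 and 2041 bp) and Mrpl40 (2448 and 2416 bp) followed. The shortest were Mrpl3 (583 and 454 bp), Mrpl43 (627 and 412 bp) and Mrpl27 (516 and 537 bp). Mrpl49 stood in the top 1% in both libraries with a hotspot of 665 and 519 bp.

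Mitochondrial promoters more often held a single peak. There was 1 promoter peak at 35 and 41 of the 78 mitochondrial members, and at 19 and 16 of the 82 cytoplasmic ones. Over all called genes there was 1 at 3565 of 15334 and 3589 of 14405, a share much nearer to the cytoplasmic one. There were 3 or more at 15.4% and 19.2% of mitochondrial members and at 41.5% and 29.3% of cytoplasmic members, beside 45.4% and 43.9% of all called genes. Both sets thus lay below genes at large in this count, the mitochondrial set further below.

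Many members share their promoter with a gene on the other strand. Another gene's start lay within 1 kb upstream, on the opposite strand, at 27 of 78 mitochondrial members (34.6%) and 22 of 86 cytoplasmic members (25.6%). The share was 14.7% of all protein-coding genes and 24.8% of those with a CpG-rich promoter. The neighbour was protein-coding at 25 of the 27 mitochondrial and 13 of the 22 cytoplasmic members. The strongest peak also stood for another protein-coding gene at 31 of 78 mitochondrial members in each library (39.7%), and at 15 and 14 of 82 cytoplasmic ones (18.3% and 17.1%). Over all called genes this was 15.5% and 16.3%. At such a peak the cutting cannot be assigned to either gene.

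One promoter served 2 mitochondrial ribosomal genes. Mrpl46, of the large subunit, and Mrps11, of the small subunit, start 30 bp apart on opposite strands and share a peak with scores of 130 and 108 (chr7:78783016-78783165 in replicate 1). Their hotspot was 838 and 808 bp long. The sequence around the Mrps11 start carries GGGCGG, in capitals.
Mrps11 (chr7:78783091-78783145, plus strand, start at 78783131): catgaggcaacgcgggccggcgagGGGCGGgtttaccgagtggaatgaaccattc

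Mrpl49 starts 59 bp from Fau, which encodes a ubiquitin-like protein fused to the cytoplasmic ribosomal protein S30, so here a cytoplasmic and a mitochondrial ribosomal gene share a promoter. Both had scores of 146 and 124, from the same peaks. Mrpl18 lies 37 bp from Tcp1, a subunit of the cytosolic chaperonin. Mrpl32 lies 75 bp from Psma2 of the proteasome, and Mrpl36 lies 51 bp from Ndufs6 of respiratory complex I. Among cytoplasmic members, Rps28 lies 10 bp from Ndufa7, another complex I gene, Rps27 lies 44 bp from Rab13 and Rpl7a lies 87 bp from Med22.

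Members with a divergent neighbour ranked slightly above those without. The median percentile was 98.8 and 98.5 for divergent cytoplasmic members and 98.6 and 97.4 for the others. In the mitochondrial set it was 97.9 and 97.2 against 97.5 and 96.3. The same order held over CpG-rich genes at large, with 98.4 and 97.6 against 97.5 and 95.9. The gap between the cytoplasmic and mitochondrial medians remained when divergent members were left out, at 1.1 points as the mean over both libraries. Small nucleolar RNA genes, which guide the modification of ribosomal RNA, lay within 30 cytoplasmic members and no mitochondrial member. Hosts had a median percentile of 98.8 and 98.6, and cytoplasmic members without such a gene 98.7 and 97.7.

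The promoters of both sets were then read for sequence features, which the choice by symbol did not use; the shares are a description, with no test. Over 300 bases of reference genome (250 before and 50 after the main GENCODE start), 73.3% of cytoplasmic and 76.9% of mitochondrial promoters were CpG-rich, against 43.9% of all protein-coding promoters. ETS letters stood in 37.2% of mitochondrial and 27.9% of cytoplasmic promoters, beside 19.7% of CpG-rich and 11.2% of all promoters. The NRF1 letters were in 19.2% of mitochondrial and 10.5% of cytoplasmic promoters, beside 16.9% and 8.58%. The YY1 letters AAGATGGC were in 14.1% and 6.98%, beside 5.07% and 3.06%. All 3 shares were higher in the mitochondrial set at GENCODE starts, though the NRF1 share was near that of CpG-rich promoters. At RefSeq starts the ETS letters stood in 37.9% of 66 cytoplasmic and 36.2% of 69 mitochondrial promoters, the other order. Both the starts and the set of genes differ there, so it cannot be told which changed the order.

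Some other features leaned to the cytoplasmic set. The palindrome CTCGCGAG was in 9.3% of cytoplasmic and 3.85% of mitochondrial promoters, beside 1.21% of all. A cytosine stood at the GENCODE start itself in 32.6% of cytoplasmic and 15.4% of mitochondrial members, beside 17.6% of all. A pyrimidine run of 8 or more touched the start in 24.4% and 6.41%, beside 9.54%. CTTT with its C within 5 bases of the start was in 14% and 5.13%, beside 4.48%. The letters GGGCGG were in 50% and 47.4%, below the 76.8% of CpG-rich promoters but slightly above the 45.3% of all. CCAAT was in 30.2% and 34.6%, so lower in the cytoplasmic set, beside 36.6% of CpG-rich promoters and 38.6% of all. The TATA letters TATAAA were in 10.5% and 8.97%, below the 12.5% of all promoters but above the 4.64% of CpG-rich ones. A match is a run of letters and was not measured as binding.

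**Figure D5:**
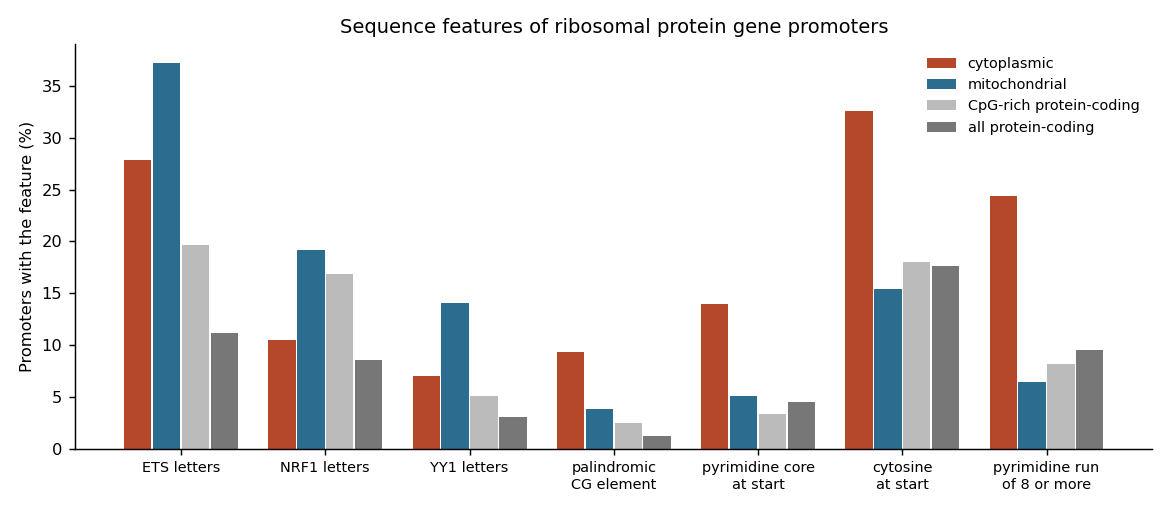
Share of promoters (vertical, percent) with each sequence feature, for cytoplasmic and mitochondrial members, CpG-rich protein-coding promoters and all protein-coding promoters; "pyrimidine core" is CTTT near the start. At these GENCODE starts the mitochondrial bar is the highest for ETS, NRF1 and YY1 letters, and the cytoplasmic bar for the other 4 features. The ETS order was the other way at the RefSeq starts of the members with an entry.

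The rank of the peak went with base composition in the cytoplasmic set, and less so in the mitochondrial set. Its CpG-rich members had a median percentile of 98.8 and 98.6 (61 genes) and the others 97.5 and 95.7 (21 genes). Mitochondrial CpG-rich members had 97.8 and 96.9 (60 genes) and the others 97.5 and 96.2 (18 genes). Spearman's correlation of GC content with percentile was 0.4 in each library over the 82 cytoplasmic members. Over the 78 mitochondrial members it was 0.19 and 0.23. These are descriptions across genes of the same libraries. The length of the pyrimidine run had a correlation with percentile of -0.02 and 0.02 in the cytoplasmic set and -0.19 and -0.27 in the mitochondrial set. Mitochondrial members with ETS letters had a median percentile of 97.7 and 96.5, and those without 97.7 and 96.9. In the cytoplasmic set the medians were 98.95 and 98.37 with ETS letters and 98.59 and 97.62 without.

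Other genes of protein synthesis were called throughout. All 8 ribosomal genes outside the naming rule had a promoter peak shared by both libraries. This held for 64.6% of all protein-coding genes and 96.4% of those with a CpG-rich promoter. Full counts in the short lists here are thus near the CpG-rich share. Among them Rack1, a scaffold on the small subunit, had scores of 134 and 106. All 12 cytoplasmic translation factors were called, with a median percentile of 99.1 and 98.7, and Eef1a1, which brings charged tRNA to the ribosome, had scores of 145 and 118. All 10 mitochondrial translation factors were called, with a median of 97.2 and 95.4. Tufm, the mitochondrial counterpart of Eef1a1, had scores of 142 and 119, and Mtrf1, a release factor, 112 and 57. The 15 ribosome assembly factors, such as Npm1 and Ncl, had a median of 98.8 and 98.6. The cytoplasmic list thus stood above the mitochondrial list here too, in both libraries, though both lists are short.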

How the data were processed

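DNase-seq peaks and hotspots of 2 replicate libraries of 1 group were used as deposited, made for each library by itself on mm10 from filtered alignments, per the labels. The peak score is the authors' own value in a column of scores, and its scaling, the caller, the aligner and the read depth were not given in the sources used here. Hotspot significance is the deposited −log10 q, which runs from 1.3 to 6 or stands at a cap of 100. How reads that map to several places were treated is not given either.

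Members were taken by symbol from GENCODE M21 basic. A promoter peak has its midpoint within 1 kb of any basic start, the highest score stands for the gene, and its percentile is the mid-rank among all peaks of its library on the assembled chromosomes (253 and 303 other peaks were left out). The hotspot is the longest that overlaps that peak. Shared peaks overlap by at least 1 bp. Promoter features came from the genome at the main GENCODE start (21934 of 21938 without N). Printed sequences are from RefSeq, GRCm38.p6, which had entries for 66 of 86 cytoplasmic and 69 of 78 mitochondrial members. Scripts (Python 3.11.15, numpy 2.4.6, scipy 1.17.1) were tested on simulated peaks. No test between samples exists, and the labels give both replicates the same donor pool, so their spread may be technical.

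Genes named in full are, per set, the 5 highest and 5 lowest by mean percentile, the 3 longest and shortest hotspots, the 3 farthest peaks and every member without a peak; others illustrate a feature. The values of 1 gene from the other lists are not reported here. Members and lists were chosen with earlier results of these data known. Alternatives covered the window, the starts used, the peak chosen, score and overlap thresholds, paralogues, divergent members and each replicate left out.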

Additional observations from a re-analysis of the deposited data

How the results depend on the processing

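As means of the 2 libraries' medians, the percentile was 98.29 for cytoplasmic and 97.18 for mitochondrial members (difference 1.12), the offset -34.5 and -18.5 bp (difference -16) and the hotspot length 950.25 and 955.75 bp (difference -5.5). The percentile difference kept its sign in both libraries under every alternative run that used both, and the offset difference did so except with the nearest peak. Ranked among promoter peaks only, the percentiles were 91.39 and 85.71 (difference 5.68). With the peak nearest to the start, the percentile difference was 0.9, the cytoplasmic offset -23 bp, the offset difference -4.25 bp (-12 and 3.5 bp in the libraries) and the hotspot difference -15.25 bp. The cytoplasmic offset was -36.25 bp with a 2500 bp window, -28.25 bp from the outermost start and -29.5 bp without divergent members. From the nearest RefSeq start, an alternative added after the data were seen, the offsets were -57 and -42 bp. Hotspot bases within 1 kb came to 1118 bp at cytoplasmic and 995.25 bp at mitochondrial members. The hotspot difference reversed to 1.25 bp with a 500 bp window and was -25.25 bp without paralogues and -39 bp without divergent members. Leaving out divergent members left 51 mitochondrial members with a shared peak. The cause of these shifts was not tested.

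With each replicate left out, the percentile difference ran from 1.07 to 1.16, the offset difference from -19.5 to -12.5 bp and the hotspot difference from -9.5 to -1.5 bp. Offsets and motif shares at RefSeq starts, both added later, rest on 66 of 86 cytoplasmic members, under 80%, so both checks are void for the cytoplasmic set; the ETS shares there were 37.9% and 36.2%, opposite in order to 27.9% and 37.2%. No paired analysis was possible because there is 1 group. Without read depth, a missing peak cannot be told from one below the calling threshold.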

Other observations

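Retrocopies of ribosomal protein genes were called about as rarely as processed pseudogenes at large. Of 276 processed pseudogenes with a cytoplasmic ribosomal symbol, 7.61% had a peak within 1 kb of their start in replicate 1 and 5.07% in replicate 2, and 12 (4.35%) had one shared by both. Over all 9940 processed pseudogenes the shares were 8.24%, 4.45% and 3.67%. None of the 5 with a mitochondrial ribosomal symbol was called. Of the 6 protein-coding symbols with "ps" that the rule left out, Rpl9-ps6 alone had a peak, in replicate 1 only, with a score of 33.

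The ribosomal protein S6 kinases, left out by the rule, had shared promoter peaks at all 10 genes. Such a peak was found at 64.6% of all protein-coding genes and 96.4% of those with a CpG-rich promoter. Rps6ka5 scored 146 and 130 and Rps6ka2 145 and 120, while Rps6ka4 scored 87 and 52. The X-linked Rps6ka3 and Rps6ka6 scored 135 and 85, and 114 and 67.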
